A study of Mus musculus with 14 samples.

Results

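The genes described here encode 33 proteins that read the mitochondrial genetic code: 16 mitochondrial aminoacyl-tRNA synthetases and 17 translation factors, tRNA-modifying enzymes and messenger-binding proteins. They were chosen by name and not by a measured value, though earlier results of these data were known. All 33 were found among the 27099 gene rows of the count table. All 33 passed the filter on low counts, as did 18152 genes in all. RNA was measured in bone marrow stromal cells (BMSCs) that carry a Nes-GFP reporter, in which green fluorescent protein is driven by regulatory elements of nestin. The cells were sorted from crushed bone as GFP+ CD45- CD31- and DAPI-, the methods adding Ter119-, and split by GFP into a Nes-GFP high and a Nes-GFP low population. The stromal cells labelled AML came from primary iMLL-AF9 mice, which carry rtTA in ROSA26 and the human MLL-AF9 fusion under a tetracycline-response element. These mice received doxycycline until leukaemia was evident, whereas normal mice, which the study calls wild-type controls, received sucrose water. AML therefore cannot be told apart from the drug or from the transgenes. Mice were 8 to 12 weeks old by the study's methods, which give that range for both sexes and all experiments. Whether the range holds at sorting, after leukaemia had developed in AML mice, is not stated. The groups held 2 AML and 2 normal Nes-GFP high libraries, and 4 AML and 6 normal Nes-GFP low libraries. Some libraries came from 1 mouse and others from a pool of 2, and the labels do not say which.

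Mitochondria translate the few messengers of their own genome, all of which encode subunits of the respiratory chain and ATP synthase, on ribosomes separate from those of the cytosol. Each mitochondrial synthetase loads 1 amino acid onto the mitochondrial tRNA or tRNAs that it serves. Initiation factors place the first tRNA, which carries formyl-methionine, elongation factors bring the following tRNAs and move the ribosome, and release and recycling factors free the finished chain and split the ribosome. Every one of these proteins is encoded in the nucleus and imported.

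Totals ranged from 5615941 to 11436652 counts per library, and 14842 to 20197 genes had a count, the fewest in normal Nes-GFP high library 1. Levels are CPM, counts relative to the total of their library after TMM scaling, and 3 counts correspond to 0.275 to 0.489 CPM. Reads carried no molecular identifiers, so intervals cover counting error only. Nes, the gene whose regulatory elements drive the reporter, stood at 32.3 and 26.7 CPM in AML high, at 2.27 and 36.0 CPM in normal high and at 0 to 5.70 CPM in the low libraries. Normal high library 1 thus lay within the range of the low libraries. The sum of 5 stromal markers (Cxcl12, Lepr, Kitl, Pdgfra and Pdgfrb) spread from 310 to 46126 CPM over the 14 libraries. Ptprc, which encodes the CD45 that the sort excluded, reached 483 CPM.

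Among the 10 Nes-GFP low libraries, Lars2 (leucyl-tRNA synthetase) had the highest level per length. Its median was 100 CPM per kb of its longest coding transcript, a level that is uncertain for the reason given below. C1qbp, a matrix protein that binds mitochondrial messengers and ribosomes, followed at 69.8 CPM per kb. Tufm, the elongation factor that delivers charged tRNAs, stood at 37.5 CPM per kb. These 3 genes were well apart from most other members, of which Hars2 (histidyl-tRNA synthetase) came next at 17.3 CPM per kb and Cars2 (cysteinyl-tRNA synthetase) at 16.96 CPM per kb. At the other end, Nars2 (asparaginyl), Ears2 (glutamyl) and Pars2 (prolyl) stood at 0.597, 0.0914 and 0.0868 CPM per kb. Ears2 was under 1 CPM in 11 of the 14 libraries, and reached 29.0 CPM in AML high 1, 19.7 CPM in AML low 4 and 27.4 CPM in normal low 5. It was thus either close to absent or at the level of other members, with nothing between.

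**Figure D1:**
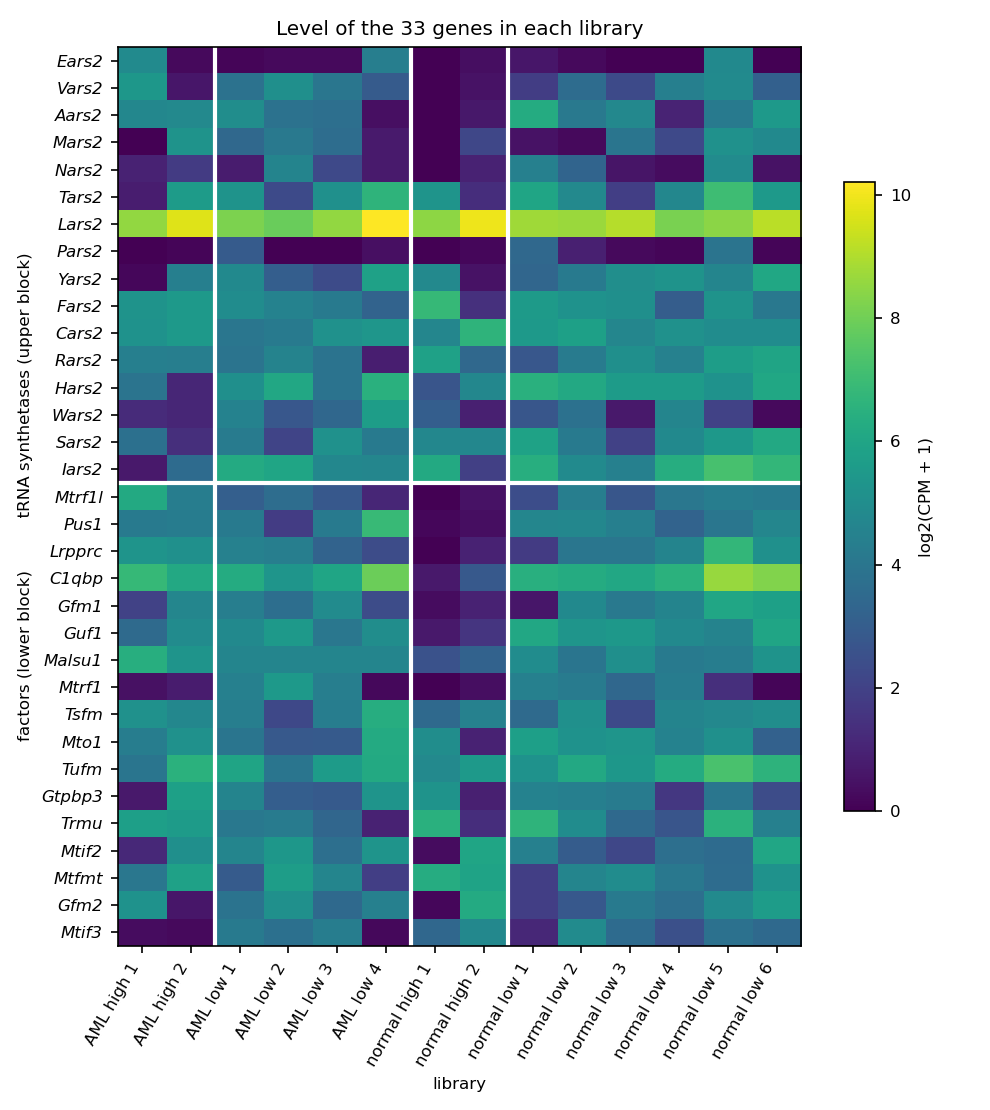
Level of each of the 33 genes (rows, log2 of CPM + 1) in each of the 14 libraries (columns), with synthetases above and factors below the white line and, within each block, genes in the order of their AML-to-normal fold change in the high population. Each gene from Mtrf1l to Malsu1 is darker in normal high 1 and 2 than in AML high 1 and 2, while Lars2 is bright in every library.

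Genes near absence were more frequent in the high libraries. In normal high, 15 and 14 of the 33 members were under 1 CPM, against 9 and 6 in AML high, 2 to 8 in AML low and 0 to 5 in normal low. The factors carried most of that gap, with 9 and 7 of 17 under 1 CPM in normal high, 3 and 3 in AML high, and 0 to 3 in the low libraries. Over all genes tested the shares under 1 CPM were 40.4% and 33.6% in normal high, 33.6% and 32.5% in AML high and 18.2% to 30.6% in the low libraries. The members were therefore under 1 CPM more often than the average gene in the 2 normal high libraries (45.5% and 42.4%) and less often in the other 12. The 81 mitochondrial ribosomal protein genes, whose products work with these factors, remained mostly detected, with 2.47% to 7.41% of them under 1 CPM in normal high. These shares are a description and were not tested.

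**Figure D2:**
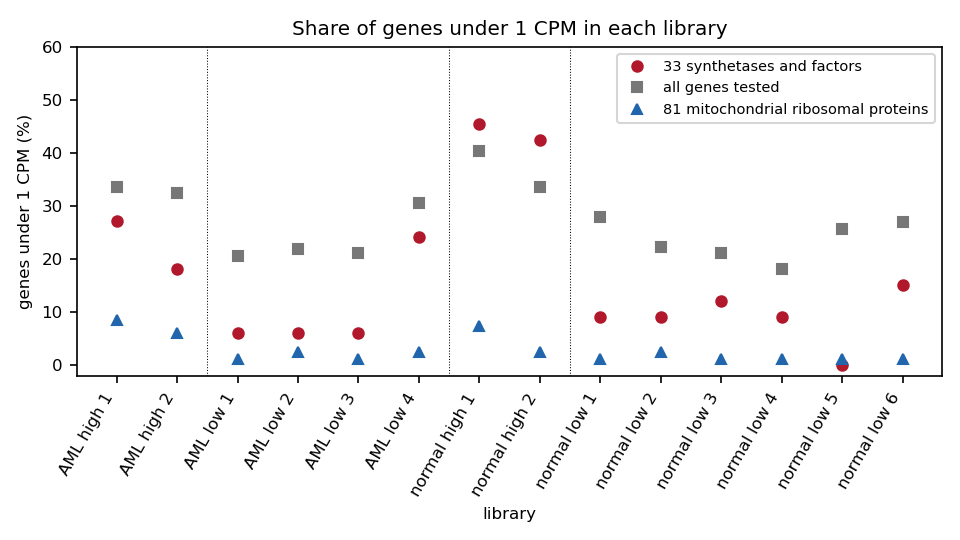
Share of genes under 1 CPM (y axis, percent) in each library (x axis) for the 33 synthetases and factors, all 18152 genes tested and the 81 mitochondrial ribosomal protein genes. The 33 genes lie above all genes tested in normal high 1 and 2 and below them in the other 12 libraries.

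Members also differed between the libraries of 1 high group, about as often as other genes did. A difference of at least 3 in log2(CPM + 1) is 8-fold in CPM + 1, and more than that in CPM. It separated the 2 AML high libraries for 8 of 33 members and the 2 normal high libraries for 9 of 33. Over all genes tested, 20.8% and 22.1% differed as much. In normal high, Fars2 (phenylalanyl) stood at 114 and 1.70 CPM, Iars2 (isoleucyl) at 73.0 and 2.84 CPM, and Trmu, which thiolates mitochondrial tRNAs, at 87.2 and 1.56 CPM. In the opposite order stood Gfm2, a ribosome recycling factor, at 0.126 and 75.7 CPM and Mtif2, an initiation factor, at 0.252 and 63.4 CPM. Comparisons within the high population rest on 2 such libraries a group.

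The first question of the design was whether Nes-GFP high BMSCs differed between AML and normal mice. Several factors stood above 10 CPM in both AML libraries and close to 0 in both normal ones, but no member passed edgeR's quasi-likelihood test after adjustment over all genes, as was the case for 0% of the genes tested. Without normal high 2, edgeR called 169 of 20733 genes higher and 25 lower, and still no member. At an unadjusted p under 0.05, 9 members stood higher in AML, against 7.62% of all genes tested, and 1 stood lower, against 4.54%. The 9 were the factors Mtrf1l, Guf1, Pus1, Malsu1, C1qbp, Lrpprc and Gfm1 and the synthetases Vars2 and Aars2. DESeq2 called the same 9 higher, where it called 6.24% of genes with an adjusted p, and 1 lower, against 4.27%. The median log2 fold change was 0.92 over the 17 factors, -0.36 over the 16 synthetases and 0.08 over all genes tested. Aars2, Mtrf1l, Malsu1, C1qbp and Lrpprc belong to a set that the study displayed from these same libraries, and the others are in its list of differing genes, so none of these directions is independent evidence. Over the 28 members outside the displayed set, the median log2 fold change was 0.01, with 14 above 0 and 14 below. That set was drawn from genes the study found higher in AML in these libraries, so leaving it out lowers the median by selection. At an unadjusted p under 0.05, 4 of these 28 stood higher, against 7.62% of all genes, and 1 lower, against 4.54%.

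Mtrf1l encodes a release factor that ends translation at stop codons. It stood at 71.7 and 18.8 CPM in AML high, at 0 and 0.426 CPM in normal high, at 7.53, 11.4, 6.01 and 1.14 CPM in AML low and between 4.39 and 19.9 CPM, with a median of 16.6 CPM, in normal low. Both AML high libraries lay above both normal high ones, by a log2 fold change of 7.67 (SE 1.81, edgeR adjusted p = 0.176). Since the normal high group held only 3 counts, that fitted value depends on the prior count. The ratio of the pooled counts, 759 against 3, was 215, with an exact 95% interval of 73.3 to 1045 for counting error.

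Pus1 makes pseudouridine in tRNAs. Its levels were 17.6 and 18.3 CPM in AML high and 0.126 and 0.284 CPM in normal high, or 317 against 3 counts, a ratio of 89.8 (exact 95% interval 30.4 to 438). The log2 fold change was 6.37 (SE 1.64, edgeR adjusted p = 0.222). In the low libraries it stood at 17.6, 2.50, 17.5 and 118 CPM in AML and between 8.44 and 25.6 CPM, with a median of 22.4 CPM, in normal mice. The AML high level thus lay inside the range of the low libraries, and the normal high level below it.

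Guf1 encodes a translation factor related to bacterial LepA. It stood at 10.4 and 29.1 CPM in AML high and at 0.630 and 1.99 CPM in normal high, a log2 fold change of 3.91 (SE 0.998, edgeR adjusted p = 0.222). In AML low its levels were 28.1, 43.9, 15.3 and 31.5 CPM, and in normal low they ranged from 22.7 to 67.8 CPM with a median of 41.1 CPM. All 10 low libraries stood above both normal high ones.

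Malsu1, an assembly factor of the large mitochondrial ribosomal subunit, varied little in the low population. It stood at 24.0, 24.3, 24.1 and 23.8 CPM in AML low and between 14.8 and 37.4 CPM, with a median of 24.6 CPM, in normal low. In AML high it reached 84.0 and 37.8 CPM, above every low library, and in normal high it stood at 4.92 and 8.37 CPM, below every low library. The log2 fold change in the high population was 3.19 (SE 0.84, edgeR adjusted p = 0.224). The lower of the 2 normal high libraries held 39 counts of it.

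C1qbp stood at 114 and 71.5 CPM in AML high and at 0.630 and 6.24 CPM in normal high. Its log2 fold change was 4.75 (SE 1.35, edgeR adjusted p = 0.269). In AML low its levels were 77.5, 39.2, 62.7 and 238 CPM, and in normal low 68.3 to 397 CPM with a median of 88.0 CPM. The normal high libraries were again the lowest of the 14. Lrpprc, which stabilises mitochondrial messengers, stood at 37.7 and 33.5 CPM in AML high against 0 and 0.993 CPM in normal high. The log2 fold change of Lrpprc was 6.14 (SE 1.93, edgeR adjusted p = 0.282). Its low-population levels were 21.5, 19.6, 8.60 and 4.24 CPM in AML and 2.46 to 107 CPM, with a median of 19.3 CPM, in normal mice. These fitted values changed with the library left out, the lone library of the group then being taken to vary like the other groups. Without normal high 2, the log2 fold change was 11.40 for Lrpprc, 7.12 for C1qbp, 11.75 for Mtrf1l and 10.96 for Aars2, while without normal high 1 the values were 5.25, 3.99, 6.77 and 5.603. Gfm1, the elongation factor that moves the ribosome along the messenger, stood at 3.10 and 24.5 CPM against 0.252 and 0.993 CPM.

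Of the synthetases, Aars2 loads alanine and was even between its 2 AML high libraries, at 25.1 and 27.2 CPM. It stood at 0 and 0.567 CPM in normal high, a log2 fold change of 6.48 (SE 2.23, edgeR adjusted p = 0.310). In the low population it spread from 0.326 to 31.4 CPM over the AML libraries (31.4, 13.6, 12.4 and 0.326 CPM) and from 1.01 to 76.3 CPM, with a median of 21.7 CPM, over the normal ones. AML low 4 thus held as little of it as the normal high libraries did. Vars2, which loads valine, was much less even. It stood at 41.4 and 0.523 CPM in AML high and at 0 and 0.426 CPM in normal high, so 1 library carried the difference of 339 against 3 counts (ratio 96.0, exact 95% interval 32.6 to 468). Ears2 was similar, with 236 against 2 counts, of which 234 came from AML high 1.

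The only member lower in AML at an unadjusted p under 0.05, also called lower by DESeq2, was Mtif3, an initiation factor, named here after its values were seen. It stood at 0.248 and 0.209 CPM in AML high and at 9.58 and 26.2 CPM in normal high. In AML low its levels were 17.3, 12.8, 19.2 and 0.163 CPM, and in normal low they ran from 1.18 to 29.8 CPM with a median of 10.6 CPM. AML low 4 was the third library in which it was under 1 CPM. The other initiation genes overlapped or differed less: Mtif2 stood at 1.24 and 32.5 CPM against 0.252 and 63.4 CPM, and Mtfmt, which formylates the first methionine, at 15.4 and 56.7 CPM against 79.6 and 59.7 CPM.

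Counted without a test, 14 of the 33 members had groups that did not overlap in the high population, 11 higher and 3 lower in AML, where 27.5% of all genes tested did not overlap. The 11 were the 9 above with Tsfm, the exchange factor of Tufm, at 34.9 and 25.3 against 10.2 and 21.6 CPM, and Mtrf1, a second release factor, at 0.372 and 0.732 against 0 and 0.284 CPM. Mtrf1 had only 10 and 2 counts, a ratio of 4.25 whose exact 95% interval, 0.905 to 39.9, includes 1. The 3 lower were Mtif3, Mtfmt and Sars2 (seryl), the last at 12.5 and 1.57 CPM against 25.6 and 25.5 CPM.

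Markers of other cells also separated the high groups. The sum of 6 erythroid markers was 36.9 and 7.11 CPM in AML high and 2072 and 108 CPM in normal high, and Slc4a1, an erythrocyte anion exchanger, had no count in AML high 1. The sum of 4 lymphoid markers was 5.20 and 1.26 CPM against 246 and 16.03 CPM, where Ighm alone held 188 and 15.5 CPM in normal high. Ighm and Cd79b separated the groups. Cd79a overlapped, at 2.97 and 0 against 8.07 and 0.142 CPM, as did Cd3e, at 0.372 and 0.105 against 0.252 and 0 CPM. Pecam1, which encodes the CD31 that the sort excluded, stood at 0.619 and 0.628 CPM against 47.5 and 1.42 CPM, the last from 10 counts. Ptprc overlapped, at 16.8 and 7.01 CPM against 109 and 6.24 CPM, as did the 7 neutrophil markers and the 5 stromal ones. Their part in the members' differences was not tested. In a bulk library, fewer cells of a type and less RNA per cell cannot be told apart.

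**Figure D3:**
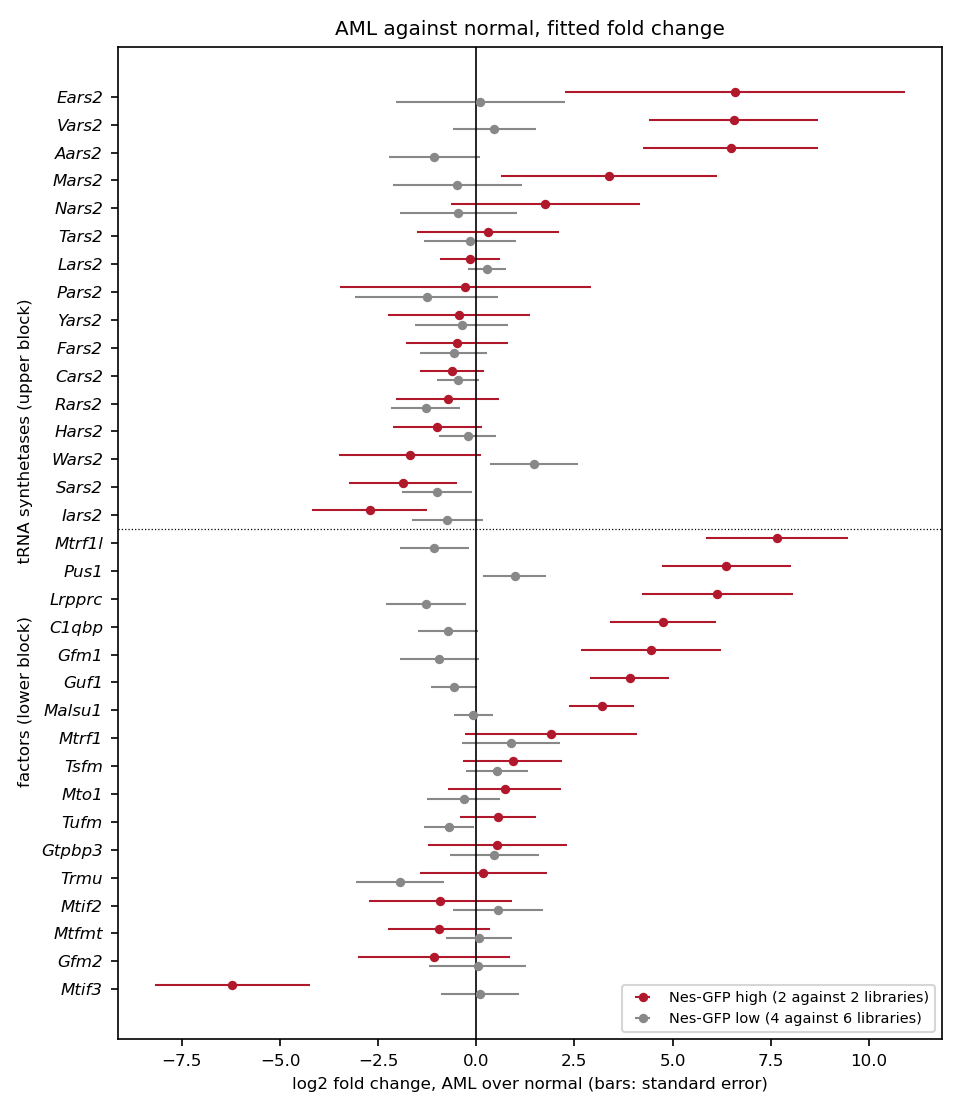
Fitted log2 fold change of AML over normal (x axis, bars show the standard error) for the 33 genes (y axis), in the Nes-GFP high population (red) and the Nes-GFP low population (grey). The 7 factors at the top of the lower block and Vars2 and Aars2 lie above 3 in the high population and between -1.28 and 0.98 in the low one.

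The DNA upstream of members that stood together in the high population is shown for 4 of the 9. Guf1 and Malsu1 had no matched RefSeq start. Of the others, only those whose RefSeq start was not downstream of the GENCODE start are shown. Each line holds the 100 bases before the RefSeq start (GRCm38.p6, 5′ to 3′ on the gene's strand), with matches to the NRF1 letters GCATGCGC in capitals. NRF1 is a nuclear factor known for its sites at genes of mitochondrial function.
Mtrf1l, chr10:5823944-5824043, minus strand: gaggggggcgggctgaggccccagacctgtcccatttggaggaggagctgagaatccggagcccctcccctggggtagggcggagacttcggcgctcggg
C1qbp, chr11:70983027-70983126, minus strand: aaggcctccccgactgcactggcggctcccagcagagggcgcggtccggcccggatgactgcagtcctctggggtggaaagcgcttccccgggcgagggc
Aars2, chr17:45506741-45506840, plus strand: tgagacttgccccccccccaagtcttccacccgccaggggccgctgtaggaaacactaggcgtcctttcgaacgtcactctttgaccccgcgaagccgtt
Vars2, chr17:35667593-35667692, minus strand: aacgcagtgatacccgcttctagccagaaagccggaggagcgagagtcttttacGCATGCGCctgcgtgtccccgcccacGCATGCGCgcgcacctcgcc
Of these 4, Vars2 held the NRF1 letters, at 2 places. In the 250 bases before the start, on both strands, the letters were found in 3 of the 30 windows of the 28 members matched (Rars2, Vars2 and Wars2) and in 2.26% of 32851 windows of all genes. The ETS letters CCGGAAG stood in 4 member windows (Cars2, Mars2, Mtif2 and Sars2) and in 6.91% of all windows, and the YY1 letters AAGATGGC in 0 and 1.56%. The 3 letters that end the ETS motif also open the YY1 motif. A match of letters is not a binding site, and none of the 3 sets was shared by those of the 9 genes that were matched.

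In Nes-GFP low BMSCs, where 4 AML and 6 normal libraries were compared, no member was called, as for 0% of the genes tested. None reached an unadjusted p under 0.05 in either direction, against 2.64% of genes higher and 2.9% lower. DESeq2 called none, where it called 0.208% of genes higher and 0.473% lower. The groups overlapped for all 33 members, while 1.11% of all genes tested did not overlap. The 4 smallest p belonged to Trmu, with a log2 fold change of -1.94 (SE 1.12), Rars2 (arginyl) with -1.29 (SE 0.88), Wars2 (tryptophanyl) with 1.48 (SE 1.12) and Lrpprc with -1.28 (SE 1.03), each with an edgeR adjusted p of 0.9999. Trmu stood at 15.99, 18.1, 9.43 and 0.978 CPM in AML low and between 5.41 and 98.9 CPM, with a median of 25.7 CPM, in normal low. The median log2 fold change was -0.46 over the synthetases, -0.08 over the factors and 0.00 over all genes tested. Cell markers varied widely here too. Erythroid markers summed to 7.74, 14.8, 96.7 and 1520 CPM in AML low and 294 to 2160 CPM in normal low. Neutrophil markers summed to 4705 to 67068 CPM and 518 to 76618 CPM, and stromal ones to 310 to 16133 CPM and 2671 to 45459 CPM. Each of these sums overlapped between the groups, and their part in the members' levels was not tested.

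Averaged over both populations, no member was called by edgeR, against 0% of genes. At an unadjusted p under 0.05, 8 stood higher, against 7.49% of genes, and 1 lower, Mtif3, against 5.15%. DESeq2 called 5 higher (Mtrf1l, Guf1, Pus1, Malsu1 and Vars2), against 3.95%, and Mtif3 lower, against 3.2%. The smallest p were those of Pus1 (log2 fold change 3.67, SE 0.91, edgeR adjusted p = 0.197), Mtrf1l (3.30, SE 0.92, adjusted p = 0.246), Malsu1 (1.56, SE 0.47, adjusted p = 0.260) and Guf1 (1.67, SE 0.55, adjusted p = 0.274). In the low population alone the same genes had log2 fold changes of 0.98, -1.06, -0.08 and -0.57.

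Whether the AML effect differed between the populations was tested as an interaction. No member was called by edgeR, against 0% of genes, while 9 had a larger effect in the high population at an unadjusted p under 0.05, against 6.41%, and 1, Mtif3, a smaller one, against 3.55%. DESeq2 called 8 larger, against 3.28%, and Mtif3 smaller, against 1.79%. The log2 difference of the 2 effects was 8.73 for Mtrf1l (SE 1.99, edgeR adjusted p = 0.304), 4.47 for Guf1 (SE 1.14, adjusted p = 0.315), 5.47 for C1qbp (SE 1.52, adjusted p = 0.346) and 3.27 for Malsu1 (SE 0.95, adjusted p = 0.371).

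Within normal mice the high population was set against the low one. This comparison shares its 2 high libraries with those above, so its values are given side by side and not as a second finding. No member was called by edgeR (0% of genes), 10 stood lower in the high population at an unadjusted p under 0.05, against 9.14% of genes, and 0 stood higher, against 2.1%. DESeq2 called 10 lower, against 10.4%, and 0 higher, against 0.621%. The 10 were Mtrf1 and the 9 genes that stood higher in AML. Guf1 had a log2 fold change of -5.06 (SE 1.003, edgeR adjusted p = 0.230), C1qbp of -5.64 (SE 1.35, adjusted p = 0.235), Pus1 of -6.51 (SE 1.59, adjusted p = 0.235) and Mtrf1l of -5.94 (SE 1.62, adjusted p = 0.250). Mtrf1 had 699 counts in the 6 low libraries and 2 in the high ones, a ratio of 85.5 (exact 95% interval 23.6 to 707). In normal low it ran from 0.101 to 20.8 CPM, and normal low 6, the lowest, lay below normal high 2 at 0.284 CPM. The groups of Mtrf1 thus overlapped. The median log2 fold change was -1.14 over the factors, -1.24 over the synthetases and -0.27 over all genes tested.

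Within AML mice the same comparison had another pattern. No member was called by edgeR (0% of genes). At an unadjusted p under 0.05, Mtrf1l stood higher in the high population, against 2.5% of genes, and Mtif3, Hars2, Mtrf1 and Iars2 stood lower, against 6.48%. DESeq2 called 3 lower (Mtif3, Hars2 and Mtrf1), against 6.45%, and 0 higher, against 0.601%. The log2 fold change was -5.68 for Mtif3 (SE 1.87, edgeR adjusted p = 0.481), 2.79 for Mtrf1l (SE 1.11, adjusted p = 0.534), -2.72 for Hars2 (SE 1.11, adjusted p = 0.546) and -5.21 for Mtrf1 (SE 2.27, adjusted p = 0.546). Hars2 stood at 14.4 and 1.15 CPM in AML high and at 33.2, 69.7, 13.8 and 88.5 CPM in AML low, so the groups overlapped. Mtrf1 stood at 20.6, 43.5, 19.8 and 0.163 CPM in AML low, the last of them, AML low 4, below both AML high libraries.

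Summed over the 17 factors, levels were 513 and 578 CPM in AML high and 289 and 315 CPM in normal high, a difference of 0.85 in log2 CPM, where the libraries of a group had an SD of 0.11. In AML low the factors summed to 413, 385, 339 and 752 CPM, and in normal low to 385 to 1030 CPM with a median of 491 CPM, a difference of -0.34 within an SD of 0.56. Of the factor sum, C1qbp averaged 92.5 CPM in AML high and 3.44 CPM in normal high. The 16 synthetases summed to 595 and 1090 CPM in AML high and 731 and 1158 CPM in normal high, a difference of -0.19 within an SD of 0.55. In AML low they summed to 624, 537, 602 and 1601 CPM, and in normal low to 616 to 1117 CPM with a median of 870 CPM, a difference of -0.17 within an SD of 0.51. The synthetase sums were thus not separated in either population. No p is given for sums over chosen genes.

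**Figure D4:**
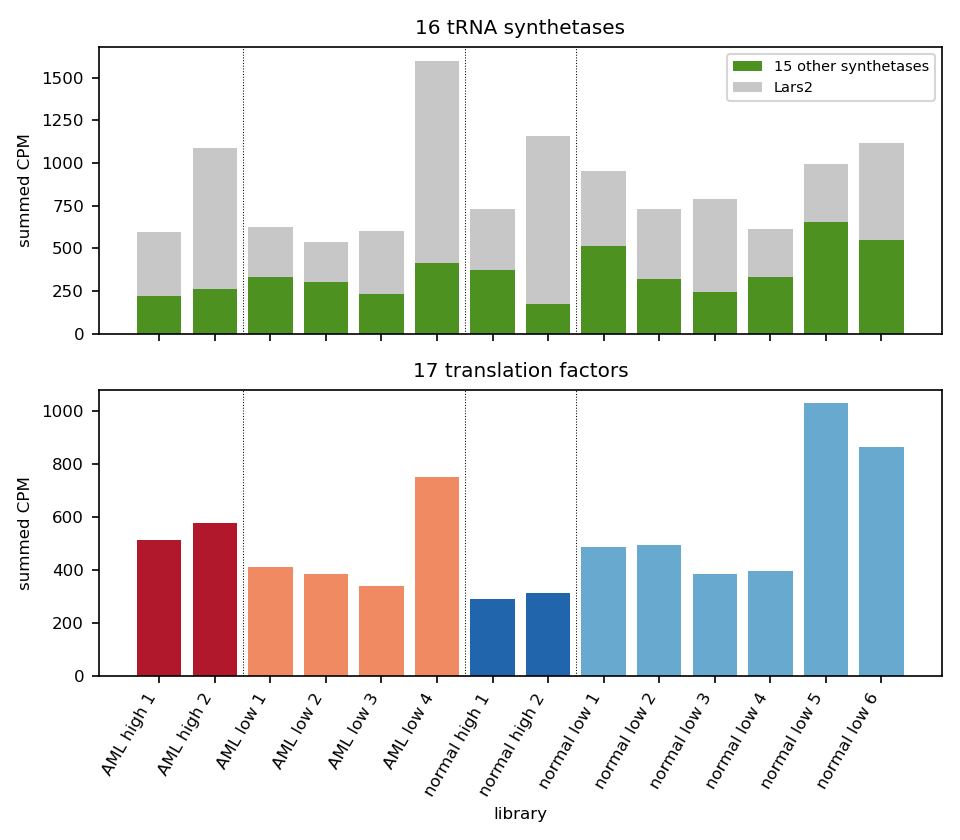
Summed CPM (y axes) of the 16 synthetases, split into Lars2 and the 15 others (upper panel), and of the 17 factors (lower panel), in each library (x axis). The factor sums of AML high, 513 and 578 CPM, lie above those of normal high, 289 and 315 CPM, while Lars2 makes up most of the synthetase sum in most libraries.

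Lars2 made up 34.4% to 85.1% of the synthetase sum. It stood at 375 and 831 CPM in AML high, at 360 and 986 CPM in normal high, at 290, 235, 373 and 1186 CPM in AML low and at 283 to 571 CPM, with a median of 422 CPM, in normal low. Without Lars2, the other 15 synthetases summed to 219 and 259 CPM in AML high and 371 and 172 CPM in normal high. A stretch of 52 bases, bases 3278 to 3329 of the 3894-base Lars2 transcript, also occurs on the same strand in Gm15564, a non-coding RNA of 402 bases, found after the values were seen. Counts of Lars2 and Gm15564 kept nearly 1 ratio, 15.7 to 20.9 Lars2 counts per Gm15564 count in all 14 libraries. Over the 14 libraries, which share their depth and scaling, Pearson's r of log2 CPM was 0.981 and Spearman's rho 0.965, with r = 0.956 without the 2 libraries farthest from the median. How the authors' counting divided reads from the shared stretch is not known, and the level of Lars2 is uncertain. Only exact matches of at least 50 bases were sought, so less exact similarity was not covered.

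**Figure D5:**
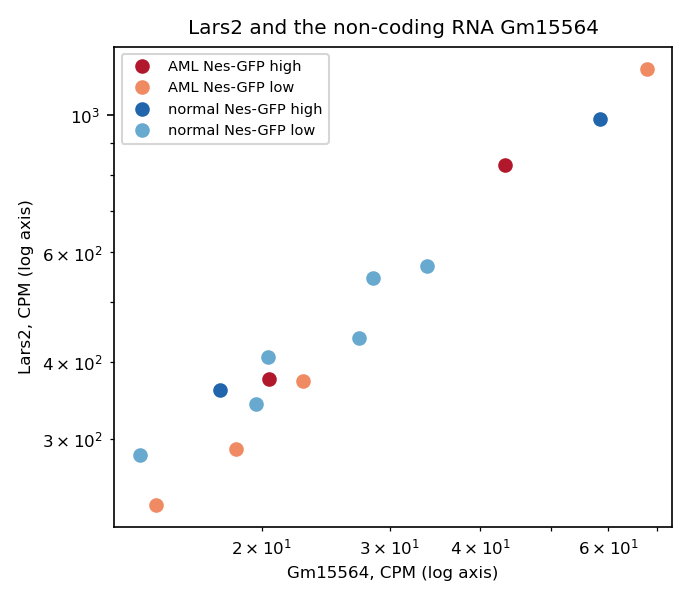
CPM of Lars2 (y axis, log scale) against CPM of the non-coding RNA Gm15564 (x axis, log scale) in the 14 libraries, coloured by group. The points lie near 1 line, with 15.7 to 20.9 Lars2 counts per Gm15564 count.

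The cytosolic synthetases, which load the tRNAs of the main protein-making machinery, were set beside the mitochondrial ones. Of 14 amino acids with 1 enzyme in each compartment, the mitochondrial fold change of AML over normal in the high population was above the cytosolic one for 8. The medians were -0.30 and -0.33. Aars2 stood at a log2 fold change of 6.48 and cytosolic Aars at -1.87, and Vars2 at 6.56 and cytosolic Vars at -2.07. Of the 16 cytosolic genes, the unadjusted p was under 0.05 for 1 that stood higher, against 7.62% of all genes, and for 2 that stood lower, against 4.54%. The smallest p was that of Hars, at 2.23 and 1.57 CPM in AML high and 112 and 165 CPM in normal high, a log2 fold change of -6.18 (SE 1.08, edgeR adjusted p = 0.109). The mitochondrial partner Hars2 stood at 14.4 and 1.15 CPM against 5.42 and 25.4 CPM, and its groups overlapped.

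A wider list of 58 genes of mitochondrial translation and RNA handling held 14 genes with an unadjusted p under 0.05 in the high population, 9 of them higher in AML, and 0 after adjustment by edgeR. Of all genes tested, 7.62% stood higher and 4.54% lower by that measure. DESeq2 called 7 higher and 3 lower, where it called 6.24% and 4.27% of genes. Rnmtl1, which methylates mitochondrial ribosomal RNA, had a log2 fold change of 7.91 (SE 2.33, edgeR adjusted p = 0.279), at 25.1 and 47.8 CPM against 0 and 0.284 CPM. Trmt10c, a subunit of mitochondrial RNase P, had one of 6.97 (SE 2.06, adjusted p = 0.279), and Trub2, a pseudouridine synthase, one of 7.51 (SE 2.31, adjusted p = 0.280). Of 80 mitochondrial ribosomal protein genes tested, 5 stood higher in AML with an unadjusted p under 0.05, against 7.62% of all genes, and 2 lower, against 4.54%. The sums of all 81 were 4254 and 3794 CPM in AML high and 3984 and 3943 CPM in normal high.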

How the data were processed

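RNA of 14 libraries of sorted Nes-GFP+ BMSCs was analysed. The authors amplified RNA by Smart-seq2, trimmed reads with Trim Galore 0.4.1, aligned them to mm10 with TopHat2 2.1.0 and counted them with featureCounts (submitters' notes and methods). The deposited values are whole-number read counts per gene symbol, without normalization; 2 library columns matched no labelled sample and were not used. Total counts per library were 5615941 to 11436652. edgeR 4.0.16 (R 4.3.3) was run on all 14 libraries and 4 groups with TMM scaling, filterByExpr (minimum count 10) and the quasi-likelihood test, two-sided, with Benjamini-Hochberg adjustment over 18152 genes and a threshold of 0.05, and was tested on simulated data. Libraries are separate mice or pools by the design text. Chi-square tests found no copied library within a group (at least 97.9 per degree of freedom).

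Levels are CPM after TMM. Transcript lengths and positions came from GENCODE M21 (GRCm38), upstream sequences from RefSeq (GRCm38.p6), which matched 28 members. Ratios of pooled counts carry exact 95% intervals. All levels of members are described, with fold changes for the 4 smallest p per comparison and for 5 genes the study displayed. Members, lists and tests were chosen with earlier results of these data known. Alternatives were DESeq2 1.42.0 (Wald test), limma 3.58.1 voom with quality weights, RLE and TMMwsp scaling, no filter, a mean of at least 10 CPM, only the groups compared, a replicate block, each library left out, and, for sums, CPM by total count and, added later, leaving out Lars2.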

Additional observations from a re-analysis of the deposited data

Results flagged for a closer look

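Within the 2 low groups, 70 sets of levels (33 members and 2 sums in each group) were examined for a library far from the others, and 10 were found, where chance gives about 1 in 20 for independent values with a normal spread. CPM levels are skewed, and the sets are not independent, since several share a library and the synthetase sum holds Lars2. The high groups, with 2 libraries each, were not examined. AML low 4, the library with the fewest counts, was the far one in 5 of them. It held 19.7 CPM of Ears2 where the next AML low library held 0.200 CPM, 1186 CPM of Lars2 against 373 CPM, 75.3 CPM of Mto1, a tRNA-modifying enzyme, against 14.5 CPM, and 118 CPM of Pus1 against 17.6 CPM. The sum of the 16 synthetases there was 1601 CPM, the next being 624 CPM. In AML low 2, Nars2 stood at 23.7 CPM, and in AML low 1, Pars2 stood at 6.601 CPM. In normal low 5, Ears2 stood at 27.4 CPM and Lrpprc at 107 CPM, and in normal low 6, Mtif2 stood at 65.4 CPM. In each case the far library was the highest of its group. The cause was not tested.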

How the results depend on the processing

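No member was called by edgeR or limma voom in any of the 6 comparisons, whatever the scaling, filter or library left out, so these counts stayed at 0 in every alternative but 1. The counts over all genes did not: without normal high 2, edgeR called 169 genes higher and 25 lower between AML and normal in the high population, 146 and 20 on average, 132 and 12 for the difference of the effects, and 11 and 178 between high and low in normal mice. The other edgeR and voom settings called at most 1 gene in a comparison. DESeq2 called members in 5 comparisons: 10 between AML and normal in the high population, 6 on average, 9 for the difference of the effects, 10 between high and low in normal mice and 3 in AML mice; the cause of the gap between the tools was not tested. Summed levels moved by less than the SD of the libraries except that, without Lars2, the synthetase sum in normal high against low went from 0.12 to -0.70 in log2 CPM. With single libraries left out, the log2 difference of AML over normal in the high population ranged from -0.63 to 0.24 for the synthetase sum and from 0.77 to 0.94 for the factor sum. Correlations of libraries with the same replicate number in their labels ran from -0.16 to 0.37 over 14 pairs. Those of differently numbered libraries ran from -0.25 to 0.31. Most same-numbered pairs crossed AML with normal mice, so whether high and low libraries shared mice is not settled by these values. With a replicate block no member was called (0 in each comparison), and Mtrf1l in the high population had a log2 fold change of 8.23. Lrpprc in the low population turned from -1.28 to 0.059 under the replicate block. In the high population each group held 2 libraries, and 8 and 9 members differed at least 8-fold in CPM + 1 between them. A group with 3 counts or fewer allows no fold beyond its counting interval.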
